A study of Sus scrofa with 4 samples.

Results

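The matrix metalloproteinases (MMPs), the ADAM and ADAMTS proteases, the ADAMTS-like proteins and the tissue inhibitors of metalloproteinases (TIMPs) were followed through the differentiation of pig preadipocytes. The members were all protein-coding genes whose symbol was MMP, TIMP, ADAM, ADAMTS or ADAMTSL followed by its number. The rule by symbol did not use their values, but it was chosen with earlier results of these data known. A total of 61 genes met this rule, among 16192 protein-coding genes and 22944 genes with an expression value. They comprised 18 MMPs, 4 TIMPs, 15 ADAMs, 19 ADAMTS proteases and 5 ADAMTS-like proteins.

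Subcutaneous preadipocytes came from 3 male piglets of the Chinese Erhualian breed, 5 days old, and were grown to confluence (D0). Dexamethasone (1 μmol/L), 3-isobutyl-1-methylxanthine (0.5 mmol/L) and insulin (5 μg/mL) were then given for 2 days (D2), insulin alone for the next 2 days (D4), and growth medium until D8. All stages shared the breed, the sex and the serum-containing growth medium. Each stage had its own hormone regime, so that day in culture and hormone regime cannot be told apart. The RNA of the 3 piglets was mixed in equal parts at each stage and made into 1 directional library after removal of ribosomal RNA, so that there were 4 libraries, no replicates and no test between stages.

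The enzymes of these families share a catalytic site that holds a zinc ion. MMPs are secreted or membrane-bound enzymes that are made as inactive precursors and cut collagens, gelatin and other matrix proteins. ADAMTS proteases are secreted and act on proteoglycans and procollagens, ADAMs are membrane proteins of which several release growth factors and receptors from the cell surface, and TIMPs bind the active site of these enzymes and block it. In adipose tissue, the turnover of collagens and the basement membrane accompanies the change of preadipocytes from a fibroblast shape to a rounded, lipid-filled cell.

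Expression was deposited as FPKM, in which fragments counted per gene are divided by transcript length and library depth. Library totals computed from the deposited values were 75387428, 54987801, 74358922 and 54128151 fragments at D0, D2, D4 and D8. A ratio between stages is the log2 of (FPKM + 0.01) in one library over the other, and the 95% interval beside it was computed from the fragments behind both values. Such an interval covers counting error only and does not hold the variation between piglets or cultures. In a culture of mixed cells, fewer cells of a type and less RNA per cell cannot be told apart.

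The cultures carried the markers of the labelled cells. The summed FPKM of 7 listed markers of preadipocytes and fibroblasts, such as PDGFRA and DCN, was 384 (D0), 710 (D2), 789 (D4) and 464 (D8). It was highest at D2 and D4, as was MMP2. THY1 in the same list was instead highest at D0, with 105, 101, 88.0 and 78.8 at D0, D2, D4 and D8. CD34, also in that list, was under 1 in every library. The sum of 8 adipocyte markers was 122 at D0, 1747 at D4 and 2076 at D8. From D4 to D8, FABP4 (853 and 1557) and CIDEC (5.01 and 54.6) were higher. The other adipocyte markers were lower at D8 than at D4, among them ADIPOQ (179 and 158) and PLIN1 (215 and 90.3). The 10 listed leukocyte markers summed to between 4.84 and 9.59, with 7 of them under 1 in every library, among them the pan-leukocyte marker PTPRC. The monocyte marker CD14 (3.14, 5.64, 7.54 and 2.78 at D0, D2, D4 and D8) and the macrophage marker CD163 (0.270, 1.42, 1.01 and 1.38) were at 1 or above in at least 3 libraries, and CD14 was highest at D2 and D4, as was MMP2. The 7 endothelial markers summed to between 1.20 and 2.81, nearly all of it PECAM1 (2.56, 1.14, 1.70 and 1.87), and CDH5 was listed at 0 in 3 libraries. Among 4 keratinocyte markers, KRT5 alone was high, between 44.4 and 275, whereas the sum of the 8 smooth muscle and pericyte markers was 6207 (D0), 665 (D2), 511 (D4) and 4812 (D8). The part of these cell types in the results that follow was not tested.

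The members were a small share of the protein-coding output, and the share was highest in the middle of differentiation. Their summed FPKM was 749.5 (D0), 1087 (D2), 1244 (D4) and 481.5 (D8), which was 0.183%, 0.286%, 0.312% and 0.117% of the FPKM of all protein-coding genes. At D2 and D4, the 5 highest members were MMP2, MMP14, TIMP1, ADAM9 and TIMP2, and the same 5 were highest at D8. MMP2, MMP14, TIMP1 and ADAM9 together held between 60.5% at D8 and 77.8% at D2 of the summed FPKM of all members. MMP2 alone held 13.2%, 34.2%, 38.7% and 20.1% of it at D0, D2, D4 and D8, and MMP14 held 16.7%, 25.0%, 23.2% and 18.0%. Not every family was highest at D4. The sums of the MMPs and of the ADAMTS proteases (43.8, 89.2, 125 and 51.2) were. Those of the TIMPs and ADAMTS-like proteins were highest at D0, and that of the ADAMs at D2 (152, 156, 150 and 104).

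**Figure D1:**
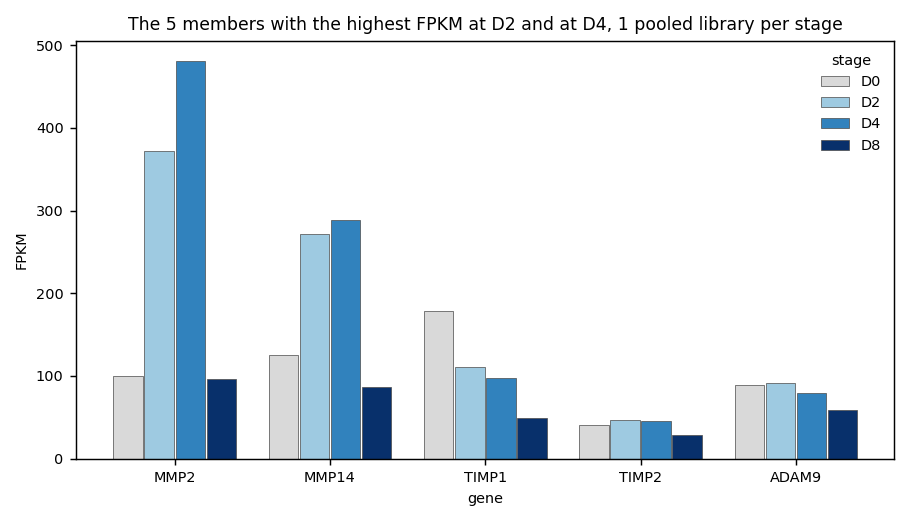
FPKM (vertical axis, linear from 0) of MMP2, MMP14, TIMP1, TIMP2 and ADAM9, with 1 bar per library in the order D0, D2, D4 and D8 and no error bars, since each stage is 1 pooled library. MMP2 and MMP14 stood highest at D2 and D4, whereas TIMP1 was highest at D0 and lowest at D8.

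A gene was called reliably expressed when 3 or more of the 4 libraries had an FPKM of 1 or above. This held for 29 of 61 members (47.5%) and for 9191 of 16192 protein-coding genes (56.8%), and 28 of the 29 members were at 1 or above in all 4 libraries. A further 8 members reached 1 in 1 or 2 libraries. The other 24 members stayed under 1 in every library, with a highest value of 0.894 for ADAMTS3, and 10 of the 61 were listed at 0 in at least 1 library.

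The ratios of the reliably expressed members were set beside those of all 9191 reliably expressed mRNAs. From D0 to D2, 5 of 29 members were at least 2-fold higher and 5 were at least 2-fold lower, against 6.67% and 10.1% of all mRNAs. From D2 to D4, 3 members were higher and 0 were lower, against 4.24% and 0.838% of all mRNAs. From D4 to D8, 5 members were higher and 11 were lower, against 4.43% and 10.1% of all mRNAs. The 11 members that were lower at D8 than at D4 made up 37.9% of those measured.

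The comparisons across longer intervals were counted in the same way. D4 against D0 held 8 members that were at least 2-fold higher and 5 that were lower, against 10.4% and 8.81% of all mRNAs. D8 against D0 held 3 higher and 7 lower members, against 3.6% and 3.68% of all mRNAs. The 5 comparisons use the same 4 libraries and are therefore not independent of each other. Across them, 20 of 29 members (69.0%) were at least 2-fold apart in 1 comparison or more, against 29.9% of all mRNAs.

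The median member moved less than these counts. The median log2 ratio of the 29 members was 0.05 from D0 to D2, where that of all mRNAs was -0.03, and 0.28 from D0 to D4, where that of all mRNAs was 0.06. From D4 to D8 it was -0.64, where that of all mRNAs was -0.21, and from D0 to D8 it was -0.43, where that of all mRNAs was -0.18. From D2 to D4 it was 0.06 beside 0.09 for all mRNAs, and it was -0.034 when the libraries were scaled by the median ratio of all mRNAs and -0.013 when FPKM was rescaled over protein-coding genes. Scaling by the median ratio shifted every gene by 0.21 from D4 to D8 and by 0.16 from D0 to D8, and calls that were lost with it are named with their genes.

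**Figure D2:**
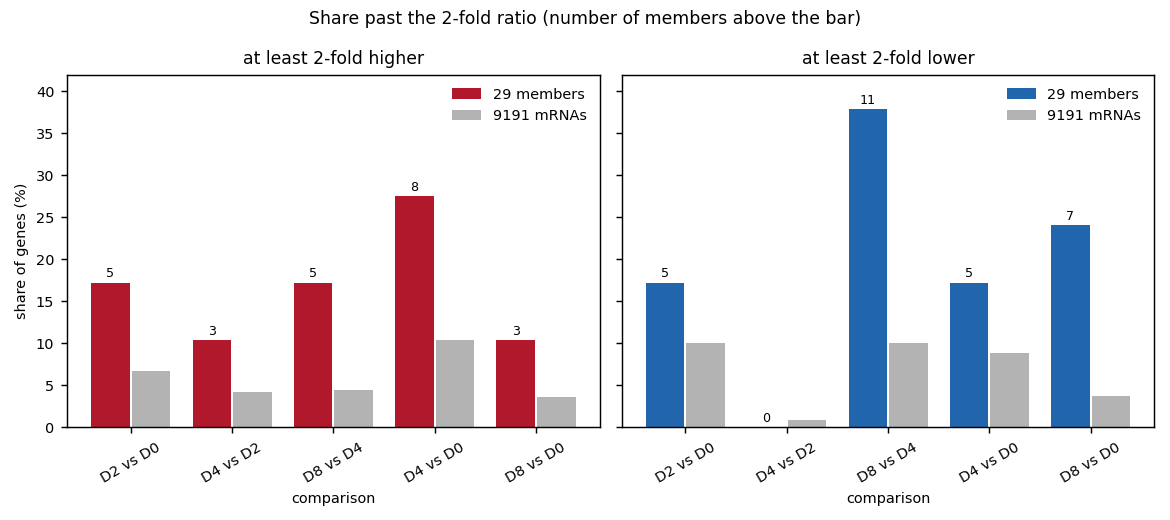
Share of genes (vertical axis, percent, from 0) that were at least 2-fold higher (left) or lower (right) in each of the 5 comparisons, for the 29 reliably expressed members (coloured bars, with their number above) and for all 9191 reliably expressed mRNAs, members included (grey bars). The highest bar belongs to the 11 members that were lower at D8 than at D4.

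The gelatinases MMP2 and MMP9 degrade denatured collagen and the type IV collagen of basement membranes. MMP2 (chr6:30059247-30087031, minus strand, assembly Sscrofa11.1) had an FPKM of 99.3 (D0), 371 (D2), 481 (D4) and 96.8 (D8). It was the highest member at D2, D4 and D8, and its D0 and D8 values were nearly equal. The log2 ratio was 1.90 (1.88 to 1.93) from D0 to D2 and -2.31 (-2.34 to -2.29) from D4 to D8, which is 4.97-fold lower, on at least 16138 fragments in every library.

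MMP9 (chr17:48179690-48186782, plus strand) was measured at far lower levels. Its FPKM was 4.15 (D0), 7.51 (D2), 3.89 (D4) and 1.48 (D8). It was highest at D2 and lowest at D8, and the log2 ratio from D4 to D8 was -1.39 (-1.64 to -1.16). The level of MMP2 was 23.9 times that of MMP9 at D0 and 124 times at D4, on the FPKM scale.

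Membrane-type MMPs act at the cell surface, and MMP14 is known as the enzyme that activates pro-MMP2, with TIMP2 as the bridge between them. MMP14 (chr7:76174502-76185931, minus strand) had an FPKM of 125 (D0), 271 (D2), 288 (D4) and 86.9 (D8). It followed the order of MMP2, with a smaller range: the log2 ratio was 1.12 (1.10 to 1.14) from D0 to D2 and -1.73 (-1.75 to -1.71) from D4 to D8. MMP14 stood above MMP2 at D0, where MMP2 was at 0.794 times its level, and below it at the later stages, where the ratio of MMP2 to MMP14 was 1.37, 1.67 and 1.11.

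The other membrane-type MMPs were low. MMP15 had an FPKM of 2.59, 1.47, 1.16 and 1.56 at D0, D2, D4 and D8, with a log2 ratio of -1.15 (-1.34 to -0.98) from D0 to D4. MMP16 had an FPKM of 2.02, 1.84, 2.15 and 4.50, so that it stood apart at D8, with a log2 ratio of 1.07 (0.99 to 1.15) from D4 to D8 and 1.15 (1.07 to 1.24) from D0 to D8. MMP16 was the only reliably expressed MMP with its highest value at D8. MMP17, MMP24 and MMP25 were under 1 in every library.

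**Figure D3:**
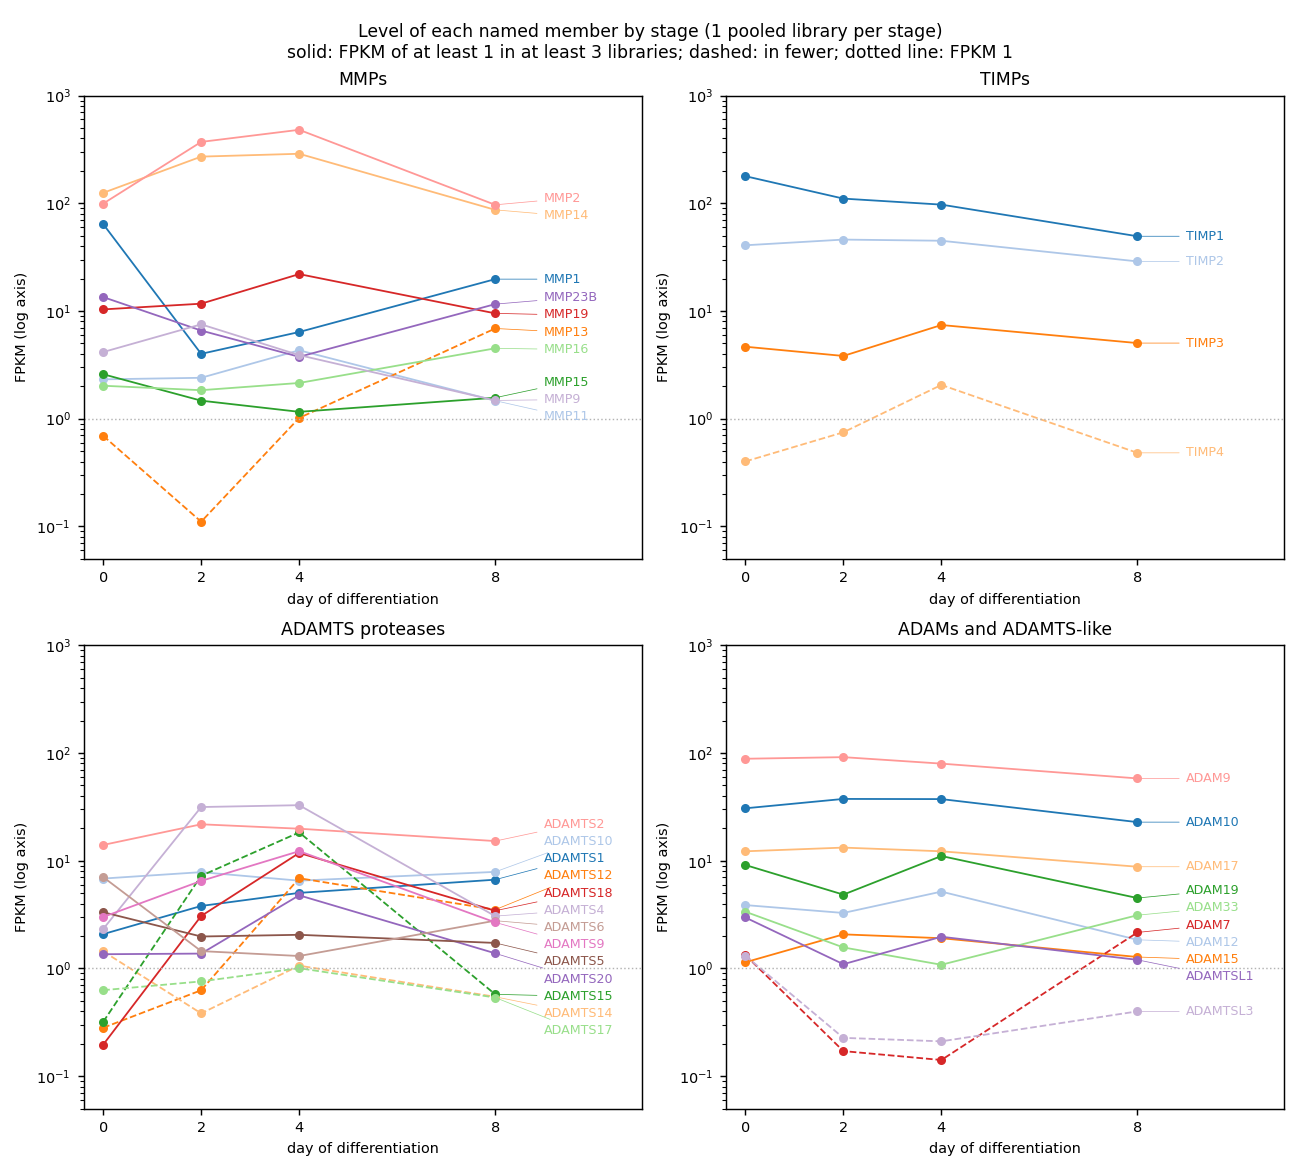
FPKM (vertical axis, log scale) against day of differentiation (horizontal axis) for the 37 members that reached an FPKM of 1 in 1 library or more, in 4 panels by family, with solid lines for the 29 reliably expressed members, dashed lines for the other 8 and a dotted line at FPKM 1. Each point is 1 pooled library. ADAM9, ADAM10, ADAM17 and TIMP2 run nearly flat, whereas MMP2, MMP14 and several ADAMTS proteases are highest at D2 or D4 and MMP1 and MMP13 are lowest at D2.

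The collagenases cut intact fibrillar collagen, and both measured ones were lowest at D2. MMP1, the interstitial collagenase, had an FPKM of 64.2 (D0), 4.0 (D2), 6.38 (D4) and 19.8 (D8). It was highest at D0 and regained only part of that level by D8. The value at D2 was 16-fold lower than at D0, a log2 ratio of -4.0 (-4.15 to -3.87), and the log2 ratio from D4 to D8 was 1.63 (1.52 to 1.74). Against D0, MMP1 was at least 2-fold lower in each later library, as was ADAMTS6, against 1.77% of all mRNAs with this pattern.

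MMP13, the collagenase 3 of cartilage and bone, was not reliably expressed, since it was under 1 at D0 and D2. Its FPKM was 0.693 (D0), 0.110 (D2), 1.02 (D4) and 6.88 (D8). The D8 library stood far above the others, with a log2 ratio of 2.75 (2.60 to 2.92) against D4 and 3.29 (3.12 to 3.50) against D0. The ratio of MMP1 to MMP13 was 92.6 at D0 and 2.87 at D8 on the FPKM scale. The third collagenase, MMP8, was under 1 throughout.

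MMP1 and MMP13 lie in a cluster of MMP genes on chromosome 9. In the files, MMP7, MMP27, MMP8, MMP1, MMP12 and MMP13 occupied 402 kb (chr9:33214590-33616700, Sscrofa11.1). MMP1 (chr9:33411738-33420205) and MMP13 (chr9:33549003-33616700) were both on the minus strand and were the members of the cluster that reached an FPKM of 1. The other 4 stayed at or below 0.227, the highest value of MMP12, the macrophage elastase.

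The remaining MMPs differed in the stage of their highest value. MMP11, the stromelysin 3, had an FPKM of 2.32, 2.40, 4.31 and 1.47 at D0, D2, D4 and D8, with a log2 ratio of -1.55 (-1.68 to -1.43) from D4 to D8. MMP19, a secreted MMP with wide tissue distribution, had 10.3, 11.7, 22.0 and 9.50. It was highest at D4, with log2 ratios of 1.09 (1.01 to 1.17) against D0 and -1.21 (-1.31 to -1.12) from D4 to D8, the latter just short of 2-fold (-0.9998) with median-ratio scaling. MMP23B, whose product is anchored in the membrane by its N-terminal part, showed the opposite order with 13.5, 6.58, 3.75 and 11.6. Its log2 ratio was -1.84 (-2.00 to -1.69) from D0 to D4 and 1.62 (1.46 to 1.79) from D4 to D8, whereas that from D0 to D2, -1.03 (-1.17 to -0.89), was -0.92 when FPKM was rescaled over protein-coding genes and -0.995 with median-ratio scaling.

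The inhibitors differed in the stage of their highest value. TIMP1, a secreted inhibitor of most MMPs (chrX:42103251-42106289, plus strand), had an FPKM of 179 (D0), 111 (D2), 97.2 (D4) and 49.4 (D8). It was the highest member at D0 and lower at each later stage, and D8 was 3.61-fold below D0, a log2 ratio of -1.85 (-1.92 to -1.78). TIMP2, the inhibitor that also takes part in pro-MMP2 activation, had an FPKM of 40.7, 46.0, 44.9 and 28.9. None of its 5 ratios reached 2-fold. That from D4 to D8, -0.64 (-0.68 to -0.59), was the middle value of the reliably expressed members and is therefore itself their median.

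TIMP3, which binds to the matrix and also blocks ADAM17 and the aggrecanases, had an FPKM of 4.66, 3.82, 7.41 and 5.03. It was highest at D4, and none of its ratios reached 2-fold, the nearest being 0.95 (0.85 to 1.06) from D2 to D4. TIMP4, an inhibitor known from heart and adipose tissue, reached 1 in the D4 library alone, with 0.401, 0.747, 2.06 and 0.482. Its log2 ratio was 2.33 (2.12 to 2.60) from D0 to D4 and -2.07 (-2.35 to -1.84) from D4 to D8.

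The balance of enzyme and inhibitor mRNA followed from these values. The FPKM of all 18 MMPs summed to 325, 678, 815 and 241 at D0, D2, D4 and D8, and that of the 4 TIMPs to 224, 161, 152 and 83.8. The MMP sum was thus 1.45 times the TIMP sum at D0, 4.21 times at D2, 5.38 times at D4 and 2.88 times at D8. MMP2 and MMP14 made up most of the MMP sum and TIMP1 most of the TIMP sum in every library, and the ratio of MMP2 to TIMP2 alone was 2.44, 8.07, 10.7 and 3.35. A ratio within a library does not depend on the scaling of the library.

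**Figure D4:**
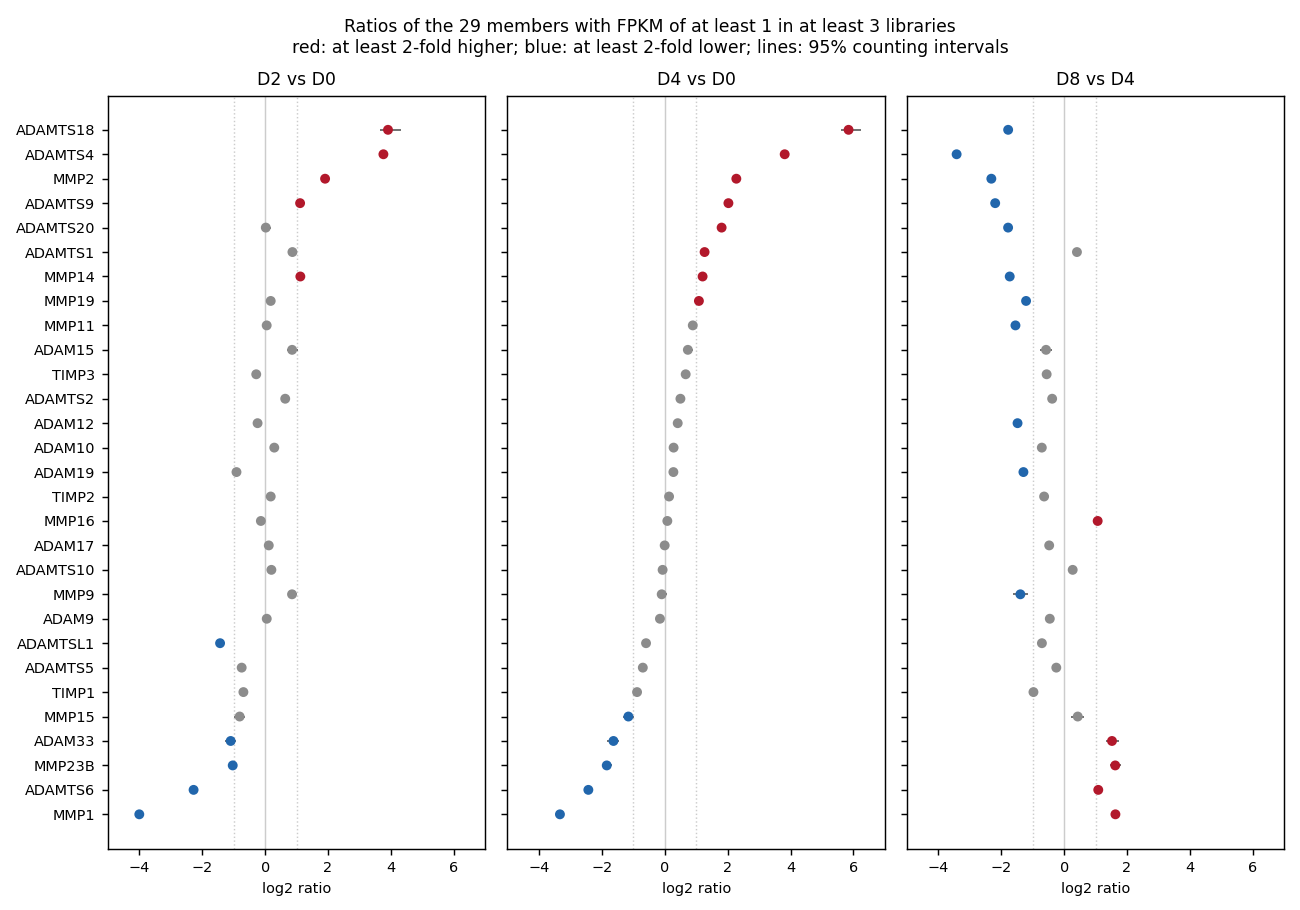
Log2 ratios (horizontal axis) of the 29 reliably expressed members for D2 against D0, D4 against D0 and D8 against D4, ordered by the ratio of D4 to D0, with 95% counting intervals as lines (often shorter than the symbol) and dotted lines at 2-fold. Red marks members at least 2-fold higher, blue those at least 2-fold lower and grey the rest. Of the 8 members in red for D4 against D0, 7 are blue for D8 against D4, the exception being ADAMTS1.

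The ADAMTS proteases that cut proteoglycans such as versican and aggrecan were mostly higher at D4 than at D0. Of 7 such members, 5 were reliably expressed, and 4 of these were at least 2-fold higher at D4 than at D0, where the share of all mRNAs was 10.4%. Their summed FPKM was 12.4 (D0), 52.4 (D2), 75.3 (D4) and 16.1 (D8).

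ADAMTS4, the aggrecanase 1 (chr4:89260354-89269238, plus strand), had an FPKM of 2.32 (D0), 31.5 (D2), 32.8 (D4) and 3.06 (D8). The D2 and D4 libraries stood together far above the other pair. The value at D2 was 13.6-fold that at D0, a log2 ratio of 3.76 (3.65 to 3.88), and the log2 ratio from D4 to D8 was -3.42 (-3.54 to -3.31). ADAMTS5, the aggrecanase 2, went the other way with 3.33, 1.98, 2.05 and 1.72, so that ADAMTS4 was at 0.698 times the level of ADAMTS5 at D0 and at 15.9 and 16 times at D2 and D4.

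ADAMTS15 (chr9:57127527-57152550, plus strand), which also cuts versican, was under 1 at D0 and D8 and was therefore outside the reliably expressed set. Its FPKM was 0.319 (D0), 7.25 (D2), 18.3 (D4) and 0.575 (D8). It was high in the middle pair of libraries and near its starting level at D8, with log2 ratios of 5.80 (5.60 to 6.10) from D0 to D4 and -4.97 (-5.22 to -4.78) from D4 to D8, on at least 139 fragments at D0 and 7879 at D4.

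ADAMTS9, a versican-cleaving enzyme, had an FPKM of 3.01, 6.50, 12.3 and 2.68 at D0, D2, D4 and D8. Its D0 and D8 values were close, and the log2 ratio was 2.03 (1.96 to 2.10) from D0 to D4 and -2.19 (-2.28 to -2.12) from D4 to D8. ADAMTS20, its nearest relative in the family, had 1.35, 1.37, 4.78 and 1.38, with 3 libraries nearly equal and D4 apart at a log2 ratio of 1.81 (1.71 to 1.93) against D0. ADAMTS1, which cuts versican and aggrecan, had 2.08, 3.80, 5.03 and 6.67. Among the reliably expressed members of this group, it alone was higher at each later stage, with a log2 ratio of 1.68 (1.54 to 1.82) from D0 to D8. ADAMTS8 was under 1 in every library.

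The ADAMTS proteases that remove the N-terminal propeptide of fibrillar procollagens differed in level and range. ADAMTS2 had an FPKM of 14.0, 21.8, 19.8 and 15.2 at D0, D2, D4 and D8, and none of its ratios reached 2-fold. ADAMTS14 was at 1.44, 0.382, 1.06 and 0.545, with 2 libraries under 1, and ADAMTS3 was under 1 in every library.

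Among the other ADAMTS proteases, ADAMTS18 and ADAMTS12 started under 1 and had their highest values at D4. ADAMTS18, an enzyme known from eye and organ development (chr6:10488504-10652508, plus strand), had an FPKM of 0.196 (D0), 3.07 (D2), 11.8 (D4) and 3.43 (D8). All later libraries were above D0, and it was the 1 member of 29 at least 2-fold above D0 in every later library, against 2.45% of all mRNAs. The log2 ratio was 5.84 (5.60 to 6.25) from D0 to D4, on at least 83 fragments at D0, and -1.78 (-1.88 to -1.69) from D4 to D8. An unnamed transcript on the same strand within ADAMTS18 was listed at no more than 1.14.

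ADAMTS12, which is known to cut the cartilage protein COMP (chr16:19547003-19920780, minus strand), had an FPKM of 0.281 (D0), 0.627 (D2), 6.88 (D4) and 3.51 (D8). Unlike ADAMTS4 and ADAMTS15, it was still low at D2 and remained raised at D8. The log2 ratio was 3.44 (3.29 to 3.63) from D2 to D4 and -0.97 (-1.05 to -0.89) from D4 to D8. It reached 1 in 2 libraries and was not among the reliably expressed members.

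ADAMTS6, a close relative of ADAMTS10, was among the members that were highest before induction. Its FPKM was 7.05 (D0), 1.45 (D2), 1.30 (D4) and 2.78 (D8). The log2 ratio was -2.28 (-2.42 to -2.15) from D0 to D2 and 1.08 (0.94 to 1.24) from D4 to D8. It overlaps CENPK on the same strand, which had an FPKM of 12.3, 3.85, 5.44 and 7.17, and fragments from the overlap cannot be told apart. ADAMTS10, which acts on fibrillin microfibrils, was the steadiest reliably expressed member, with 6.83, 7.83, 6.53 and 7.88 and a highest value 1.21 times its lowest. ADAMTS17 reached 1 in the D4 library alone, at 0.628, 0.758, 1.0 and 0.537.

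The ADAMTS-like proteins resemble ADAMTS proteases but lack the protease domain. ADAMTSL1 had an FPKM of 2.97 (D0), 1.09 (D2), 1.97 (D4) and 1.20 (D8). It was highest at D0, with a log2 ratio of -1.43 (-1.57 to -1.31) from D0 to D2 and -1.30 (-1.43 to -1.18) from D0 to D8. A lncRNA on the opposite strand of ADAMTSL1 had an FPKM between 2.39 and 4.11. ADAMTSL3 reached 1 at D0 alone, with 1.31, 0.227, 0.210 and 0.399, and the other 3 were under 1 in every library.

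The ADAMs with broad sheddase activity were among the steadiest members. ADAM9 (chr15:47523768-47601722, minus strand) had an FPKM of 88.5 (D0), 91.6 (D2), 79.8 (D4) and 58.1 (D8). ADAM10, the main enzyme of Notch receptor cleavage, had 30.7, 37.5, 37.4 and 22.8. ADAM17, the enzyme that releases tumour necrosis factor and epidermal growth factor receptor ligands, had 12.2, 13.2, 12.2 and 8.80. All had their highest value at D2 and their lowest at D8, and none reached 2-fold in any comparison. The order ADAM9, ADAM10, ADAM17 was the same in every library, with ADAM9 at between 2.13 and 2.89 times ADAM10 and ADAM10 at between 2.51 and 3.05 times ADAM17. On the opposite strand, ADAM10 overlaps a transcribed pseudogene with an FPKM between 13.2 and 20.1, and ADAM17 overlaps IAH1 with an FPKM between 16.8 and 23.5.

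ADAM12, ADAM19 and ADAM33 are known from muscle, bone and airway and varied more. ADAM12 had an FPKM of 3.87, 3.27, 5.17 and 1.84 at D0, D2, D4 and D8, with a log2 ratio of -1.48 (-1.58 to -1.39) from D4 to D8. ADAM19 had 9.13, 4.85, 11.1 and 4.50, alternating between high and low libraries, with 1.19 (1.12 to 1.27) from D2 to D4 and -1.29 (-1.38 to -1.22) from D4 to D8. Both were also past 2-fold from D0 to D8, at -1.07 and -1.02, but not with median-ratio scaling, at -0.91 and -0.86.

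ADAM33, a catalytically active ADAM studied in the airway, was low where MMP2 was high. It had an FPKM of 3.36, 1.57, 1.08 and 3.12, with log2 ratios of -1.63 (-1.83 to -1.45) from D0 to D4 and 1.52 (1.33 to 1.73) from D4 to D8. That from D0 to D2, -1.10, was -0.99 when FPKM was rescaled over protein-coding genes. An unnamed antisense transcript was listed there with 1.48, 0.243, 0.317 and 1.10, and whether fragments were counted by strand was not given in the sources used here. ADAM15, a disintegrin of epithelial and endothelial cells, had 1.14, 2.07, 1.91 and 1.28 and no 2-fold ratio.

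ADAM7, whose product lacks protease activity and is known from the epididymis, had an FPKM of 1.33 (D0), 0.171 (D2), 0.141 (D4) and 2.16 (D8). The outer pair of libraries stood above the middle pair, with a log2 ratio of 3.84 (3.45 to 4.45) from D4 to D8 on at least 38 fragments at D4. ADAM7 (chr14:8484391-8554879, plus strand) starts 1082 bases after the end of ADAMDEC1, which lies on the same strand and had an FPKM of 4.39, 7.66, 9.35 and 27.7. Whether transcription continues from ADAMDEC1 into ADAM7 was not tested. ADAM28, on the other side of ADAMDEC1, stayed at or below 0.314.

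The members under an FPKM of 1 in every library were ADAM2, ADAM5, ADAM8, ADAM11, ADAM22, ADAM23, ADAM28, ADAMTS3, ADAMTS7, ADAMTS8, ADAMTS13, ADAMTS16, ADAMTS19, ADAMTSL2, ADAMTSL4, ADAMTSL5, MMP7, MMP8, MMP12, MMP17, MMP24, MMP25, MMP27 and MMP28. They include MMP8, MMP12 and MMP25, which are known from leukocytes, and ADAM2 and ADAM5, which are known from testis. The gelatinase MMP9 is not in this list, with values above 1 in every library.

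Patterns over the 4 stages were counted after the values had been seen, and they are given as a description. Of the 29 reliably expressed members, 7 (24.1%) were at least 2-fold higher at D4 than at both D0 and D8, against 5.56% of all mRNAs. They were MMP2, MMP14, MMP19, ADAMTS4, ADAMTS9, ADAMTS18 and ADAMTS20, of which MMP19 fell just short from D4 to D8 with median-ratio scaling. The opposite pattern, at least 2-fold lower at D4 than at both, was held by MMP1, MMP23B, ADAMTS6 and ADAM33, which is 13.8%, against 3.55% of all mRNAs. With a pseudocount of 1, the log2 ratios of ADAMTS6 and ADAM33 from D4 to D8 were 0.71 and 0.99, and MMP1 and MMP23B kept the pattern. The summed smooth muscle markers had the same order as MMP23B, ADAMTS6 and ADAM33, with 6207 and 4812 at D0 and D8 against 511 at D4. MMP1 was instead lowest at D2. Most of that sum was ACTA2 (2907, 324, 225 and 2762) and TAGLN (2767, 297, 277 and 1987). In the same marker list, NOTCH3 was highest at D8, RGS5 was highest at D4 and MYH11 was lowest at D8.

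The stage of the highest value was spread over the course. It was D0 for 8 members, D2 for 7, D4 for 11 and D8 for 3. Over all 9191 mRNAs, the shares were 36.5%, 16.7%, 37.3% and 9.51% in the same order. The 3 members with their highest value at D8 were ADAMTS1, ADAMTS10 and MMP16.

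Genes that work with the members were counted by lists. The plasminogen system produces plasmin, an activator of several pro-MMPs, and 7 of its genes were counted, 4 of them reliably expressed. Of these 4, 3 were at least 2-fold lower at D2 than at D0, 3 at D4 than at D0 and 4 at D8 than at D0, with 0 higher in each, against 10.1%, 8.81% and 3.68% of all mRNAs that were lower. PLAU, the urokinase activator, had an FPKM of 84.4 (D0), 28.4 (D2), 32.8 (D4) and 35.5 (D8), and PLAUR, its receptor, had 60.6, 15.9, 15.6 and 25. SERPINE2, a secreted inhibitor of serine proteases, had 36.4, 7.70, 4.51 and 4.72. Plasminogen itself (PLG) was at or near 0 in every library.

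Of 17 listed convertases, cofactors and other regulators of these proteases, 16 were in the files and 13 were reliably expressed. From D0 to D2, 1 was at least 2-fold higher and 2 were lower, against 6.67% and 10.1% of all mRNAs. From D4 to D8, 1 was higher and 4 were lower, against 4.43% and 10.1%. The proprotein convertase PCSK5, which removes the prodomain of secreted proteins, had an FPKM of 5.41, 12.2, 11.6 and 4.03 at D0, D2, D4 and D8, with D2 and D4 above the outer pair, as for MMP14. FURIN, the ubiquitous convertase, had 5.28, 7.29, 9.71 and 4.47, and RECK, a membrane-anchored inhibitor of MMPs, had 1.85, 3.50, 3.34 and 1.65. LRP1, the receptor that clears many proteases with their inhibitors, had 12.8, 19.7, 23.9 and 8.59. These 4 were the genes at least 2-fold lower at D8 than at D4, although FURIN (-1.12) and RECK (-1.01) would not pass with the shift of 0.21 that median-ratio scaling gives. PCSK6 went the other way, with 9.93, 4.33, 2.17 and 2.75.

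The matrix proteins that these enzymes cut or bind were counted next. Of 19 listed substrates, 18 were in the files and 12 were reliably expressed. From D0 to D4, 6 were at least 2-fold higher and 0 were lower, against 10.4% and 8.81% of all mRNAs, and from D4 to D8, 0 were higher and 4 were lower, against 4.43% and 10.1%. The other 6 did not reach 2-fold from D0 to D4, among them COL1A1 with an FPKM of 258, 283, 193 and 211 and BGN with 30.3, 27.4, 21.1 and 15.4. The basement membrane collagen COL4A1 had an FPKM of 68.8, 332, 373 and 102 at D0, D2, D4 and D8, with D2 and D4 above the outer pair, as for MMP2. Versican (VCAN), a proteoglycan cut by proteases of the proteoglycan-cutting ADAMTS group, had 27.1, 55.2, 110 and 52.3. Its log2 ratio from D4 to D8, -1.07, would not pass with the shift of 0.21. Not all of that ADAMTS group were highest at D4 as VCAN was, since ADAMTS5 was highest at D0 and ADAMTS1 at D8. COMP had 1.31, 18.2, 9.48 and 0.739 and was highest at D2, as was COL1A1. Fibrillar collagen COL3A1 had 491, 1286, 2058 and 1624 and stayed high at D8. Fibronectin (FN1) had 162, 202, 229 and 382 and was highest at D8, with a log2 ratio of 1.24 from D0 to D8.

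Proteins released by ADAM10 and ADAM17 were for the most part low or steady. Of 22 listed, 20 were in the files, 7 were reliably expressed and 9 were under 1 in every library. CXCL16, a membrane-bound chemokine, had an FPKM of 15.5, 5.54, 3.58 and 6.63 at D0, D2, D4 and D8 and was the 1 gene of the 7 that was at least 2-fold lower from D0 to D2, against 10.1% of all mRNAs. TNFRSF1B, a receptor of tumour necrosis factor, had 1.61, 1.84, 3.55 and 1.31 and was the 1 gene of the 7 at least 2-fold lower from D4 to D8, also against 10.1%. Outside the 7, the cadherin CDH2 had 6.48, 0.759, 0.401 and 1.30, the growth factor AREG had 2.28, 0.887, 0.156 and 0.367, and the growth factor BTC had 0.0310, 0.193, 0.813 and 3.13. Of 7 listed procollagen C-proteinases and related genes, 5 were in the files and 2 were reliably expressed, BMP1 with 9.83, 13.7, 16.6 and 9.84 and its enhancer PCOLCE2 with 53.5, 84.8, 65.0 and 21.3.

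Circular RNAs (circRNAs), in which an exon end is joined back to an earlier exon start, gave a second readout of the same genes. They were deposited as SRPBM, junction reads scaled by all mapped reads, and 1 such read equalled 6.42 SRPBM (D0), 7.27 (D2), 5.94 (D4) and 8.40 (D8). Of 8623 circRNAs, 38 came from members, and they belonged to 14 of the 61. The members were 61 of 16192 protein-coding genes. How many of all protein-coding genes had a circRNA was not counted, nor in how many libraries all circRNAs were listed. The counts given here are therefore a description of the members only. Their junction reads summed to 124 (D0), 116 (D2), 126 (D4) and 108 (D8). No circRNA of a member had more than 20 junction reads in any library, 4 were listed in all 4 libraries and 17 in 1 library. The smallest number above 0 was 2, the minimum of the circRNA caller, so that a listed 0 may stand for 1 junction read.

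ADAMTS6 had the most circRNAs. Its 11 circRNAs summed to 25 junction reads (D0), 28 (D2), 18 (D4) and 2 (D8). The junction reads at D2 were thus not fewer than at D0, while the FPKM of the gene at D2 was 4.87-fold below D0. ADAM12 followed with 5 circRNAs and 35, 17, 30 and 13 junction reads, and ADAM17 with 4 circRNAs and 31, 20, 23 and 20.

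The other members with circRNAs had fewer junction reads. The 1 circRNA of ADAMTS12 had 0, 6, 20 and 11 junction reads at D0, D2, D4 and D8, the order of the gene's FPKM. The 2 circRNAs of MMP16 summed to 4, 2, 3 and 17, also highest at D8 as was the gene. The 3 circRNAs of MMP14 summed to 7, 0, 0 and 21, the reverse of its FPKM, which was highest at D4. The 2 of MMP2 summed to 9 at D2 and 0 elsewhere. No order between libraries was tested for these few reads.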

How the data were processed

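RNA was measured in 4 libraries, 1 per stage. The authors aligned reads to the pig genome (Sscrofa11.1) with HISAT2 2.0.5 and deposited FPKM per gene. For circRNAs, they used BWA and deposited SRPBM, a signal of junction reads scaled by all mapped reads. The counting tool, its strand setting and the annotation release were not given in the sources used here. Library totals were computed from single-exon tRNA and miRNA genes, and the smallest fragment numbers that turn the FPKM of a gene into whole fragments (tolerance 0.002) gave the counting intervals (exact binomial, 95%), so that these intervals are wide rather than narrow. This step was tested on simulated data. All junction reads were whole (tolerance 0.01). A gene past 2-fold had a log2 ratio of (FPKM + 0.01) of at least 1 in size and FPKM of at least 1 in 3 libraries. All members that reached 1 in a library are named with values. The members and lists were chosen with earlier results of these data known. Python 3.11.15, numpy 2.4.6, pandas 2.3.3 and scipy 1.17.1 were used. Alternatives were other pseudocounts, filters and library scalings. Of 61 members, 60 were paired with the reference table by symbol and position (TIMP2 was not), and 24 overlap another gene in the files. Sequences were not used here, and 1 gene of a list is not reported here.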

Additional observations from a re-analysis of the deposited data

How the results depend on the processing

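With 1 pooled library per stage, no library could be left out, and variation between piglets was not measured. No paired analysis was possible because each stage had 1 library and no result came from a test. Of the 52 calls past 2-fold, all kept their direction under each pseudocount and scaling, and 52, 38, 48 and 50 stayed past 2-fold with a pseudocount of 0.1, a pseudocount of 1, median-ratio scaling and FPKM rescaled over protein-coding genes. Requiring the counting interval to leave out 0 removed none. A pseudocount of 1 left 2 lower members at D2 vs D0, 2 higher at D8 vs D4 with a median of -0.48, and 4 lower at D8 vs D0. Without a filter on low values, higher and lower members numbered 15 and 18 (D2 vs D0), 13 and 5 (D4 vs D2), 16 and 22 with a median of -0.58 (D8 vs D4), 18 and 13 (D4 vs D0), and 11 and 17 with a median of -0.20 (D8 vs D0). With FPKM of at least 1 in 1 library, 9 were lower (D2 vs D0), 8 were higher with a median of 0.22 (D4 vs D2), and 5 were higher with a median of -0.22 (D8 vs D0). Median-ratio scaling gave 1 lower member, MMP9, and a median of -0.034 at D4 vs D2, and medians of -0.43 (D8 vs D4) and -0.27 (D8 vs D0). Rescaled FPKM gave 3 lower members (D2 vs D0), and 1 lower with a median of -0.013 (D4 vs D2). By construction, a larger pseudocount shrinks the ratios of low genes, and a looser filter lets more genes in.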
